A study of Bos taurus with 15 samples.

Results

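T cells of the newborn (NB) bovine liver were taken as the barcodes of the NB liver single-cell RNA sequencing (scRNA-seq) library that carried RNA of *CD3E*, a signaling chain of the T cell receptor complex. Members were chosen by measured values: 500 to 4000 detected genes, under 50000 unique molecular identifiers (UMIs), at least 1 UMI of *CD3E*, and no UMI of *NCR1* (a receptor of natural killer cells) or *FOXP3* (the transcription factor of regulatory T cells). The rule found 5055 members among 12734 liver barcodes within the gene and UMI limits, 13669 liver barcodes in all, and 172405 barcodes in the series. The levels of *CD3E*, *NCR1*, and *FOXP3* in the members are therefore set by the rule.

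The study compared digestive tissues of NB and adult (AD) Holstein cattle, and counts from 15 libraries, 11 NB and 4 AD, are used here. The liver library came from NB tissue digested with collagenase I, papain, and DNase I. The comparison group was the CD3E barcodes, by the same rule, of the NB duodenum, jejunum, ileum, cecum, colon, and rectum, which were stripped of muscle and treated with EDTA and trypsin before a lamina propria kit. The NB tissues came from 3 calves, and which calf gave which library is not stated in the sources used here. The 4 AD intestinal libraries came from a single lactating cow. Each tissue had 1 library, so tissue, calf, and dissociation cannot be told apart, no test between groups was made, and the 95% intervals below cover counting error only. Total UMIs were 85678587 in the liver library and 62529511 to 117505536 in the intestinal ones. The T groups themselves were less even. The liver members held 20484542 UMIs, against 581120 (duodenum) to 10290783 (rectum) in the intestinal groups.

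T cells recognize antigen through either an alpha beta or a gamma delta receptor, which signals through the CD3 chains and the kinases *LCK* and *ZAP70*. Alpha beta cells usually carry the coreceptor CD4 or CD8, while many gamma delta cells carry neither. Gamma delta T cells are abundant in the blood of young ruminants, and a large subset bears WC1 molecules, scavenger receptors of the family of CD163L1, and lacks CD2 and CD8. The liver is a filter of portal blood and holds resident lymphocytes beside cells that pass through its sinusoids.

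The members matched their label at the level of the receptor complex. Another CD3 chain (*CD3D*, *CD3G*, or *CD247*) was seen in 78.3% of the members, against 10.2% of the 5930 other liver barcodes with *PTPRC*, the common leukocyte antigen CD45. *CD3D* was found in 41.9% and *CD247* in 64.3% of the members. *PTPRC* itself was seen in 69.6%, at a median depth of 2758 UMIs and 989 genes per member (other *PTPRC* barcodes, 8058 UMIs). The constant genes of the receptor chains are not listed by symbol, so alpha beta and gamma delta cells could not be separated. Coreceptor and *WC1* family genes are used below as partial markers, which leave many members unassigned.

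The rule rested on few molecules in part of the barcodes. There were 891 members with 1 *CD3E* UMI, 932 with 2, and 3232 with 3 or more, and another CD3 chain was seen in 59.1%, 77.6%, and 83.8% of them. Just outside the rule, 724 barcodes without *CD3E* had another CD3 chain, 88.5% of them *CD247*, and 140 had *CD3D* or *CD3G*. At the lower gene limit, 20 members had 500 to 549 genes, and 25 CD3E barcodes had 450 to 499. At the upper limit, 11 members had 3901 to 4000 genes and 8 CD3E barcodes had 4001 to 4100. The rule left out 25 CD3E barcodes for *NCR1* and 2 for *FOXP3*. *CD3E* also occurred in 10.5% of 2566 barcodes with at least 1% of their UMIs from macrophage markers (interval 9.32 to 11.7, median 8734 UMIs) and in 7.24% of 221 such hepatocyte barcodes (median 6506 UMIs).

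Most members carried some RNA of other cell types, and 728 carried more of it. Markers of other cell types and class II MHC genes made up at least 0.5% of the UMIs in these 728 of the 5055 members, a limit set near the trough of their distribution after the values were seen. These 728 members had a median of 10037 UMIs, against 2594 in the other 4327, and 482 of them (66.2%) were among the highest doublet scores. Those scores were set at 10.2% of the liver barcodes within the limits and took in 15.1% of all members. All 10 macrophage markers had UMIs in the members, in 66.1% of barcodes, led by the complement genes *C1QA*, *C1QC*, and *C1QB*. Levels are UMIs of a gene per 1000000 UMIs of the group (CPM). The summed macrophage level was 3979.5 CPM in all members, 332 in the 4327, and 12143 in other *PTPRC* barcodes. Neutrophil markers (2013, 144, and 6152 CPM in the same order) and hepatocyte markers (695, 178, and 236 CPM) were present too, and erythroid markers were seen in 0.514% of members. The 7 B cell markers summed to 251, 164, and 336 CPM and were seen in 36.5% of members (35.6% under the limit). They were led by *JCHAIN* (117 CPM in all members, 12.9 under the limit) and *CD79A* (105 and 142), while *MS4A1* was at 4.59 and 1.66 CPM. *CD79A*, *CD74*, and *KIT* were left out of the genes counted toward the limit, while the other markers named here were counted. The fall of the counted markers under the limit is set in part by the limit itself, and the source of the *CD79A* UMIs was not tested. Results below are given for all 5055 members and, for some genes, also for the 4327 under the marker limit. A value given once may differ under the limit. Of the members, 209 had a barcode sequence that also occurred in another library.

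**Figure D1:**
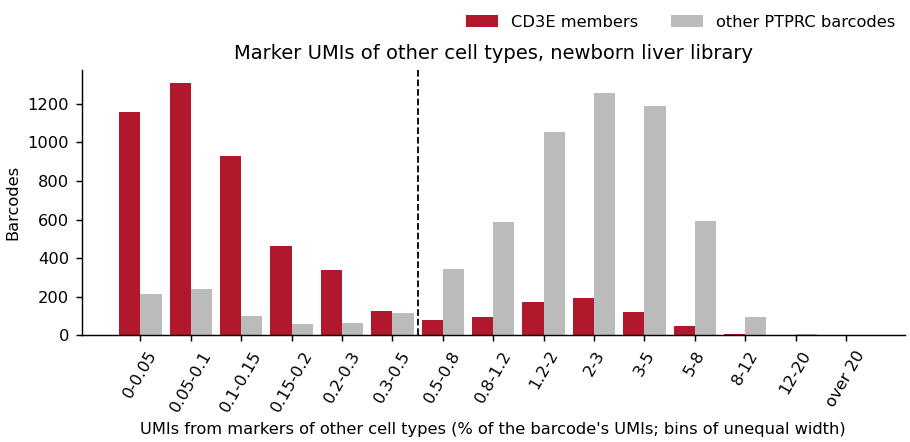
Number of barcodes (y axis) by the share of their UMIs that came from markers of other cell types and class II MHC genes, without CD79A, CD74, and KIT (x axis, percent, bins of unequal width), for the 5055 CD3E members and the 5930 other PTPRC barcodes of the NB liver. The dashed line marks the limit of 0.5%, below which 4327 members fall.

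Compared with the other leukocytes of the same library, the liver T barcodes were high in receptor signaling genes, GIMAP genes, and *BLK*, and low in class II MHC genes and macrophage markers. A gene was called when its level on the log2(CPM + 5) scale differed at least 2-fold, it reached 10 CPM in a compared group, and the counting intervals did not overlap. Of 7294 genes tested, 378 were called higher (5.18%) and 616 lower (8.45%) in the members. With each barcode weighted equally, 425 were higher and 1074 lower. The contrast is the one the rule sets up, so its values are a description. Of the other *PTPRC* barcodes, 86.6% were over the marker limit. Their macrophage markers summed to 12143 CPM and their B cell markers to 336 CPM. The contrast therefore does not set T cells apart from other lymphocytes.

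*CD3D* was at 147 CPM in the members and 2.21 in other *PTPRC* barcodes, a log2 ratio of 4.40. *BLK*, a Src family kinase known from B cells and some gamma delta T cells, followed with 181 CPM (interval 175 to 186) against 3.84 (3.31 to 4.43), a log2 ratio of 4.39. *CD247*, the zeta chain of the receptor, was at 358 against 14.2 CPM. *CD7*, a surface protein of T and natural killer cells, was at 328 against 15.7 CPM. *ZAP70*, the kinase recruited to the zeta chain, was at 158 against 6.11 CPM. *CD52*, a lymphocyte surface peptide, was seen in 96.8% of the members, at 2878 against 213 CPM. *IL7R*, the receptor for the survival cytokine interleukin 7, was at 327 against 21.5 CPM. A pair of *GIMAP7* entries, GTPases of lymphocyte survival, completed the 10 highest ratios among named genes, together with *CD3E*. The copies of this gene family share sequence, so the split of reads among them is uncertain.

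Over all genes tested, 5.18% were called higher and 8.45% lower, so a short list with few or no calls is near those shares. All 11 tested genes of the receptor and proximal signaling list were called higher (median log2 ratio 2.56, against -0.12 over all genes tested). They included the adaptor *LAT* (92.4 against 4.64 CPM) and *TRAT1* (55.8 against 2.88). The 7 GIMAP entries were all higher (median 3.31). Of 18 tested lineage transcription factors, 8 were higher and none lower (median 0.84), with *GATA3*, a regulator of T cell development, at 125 against 6.01 CPM and *TBX21*, a regulator of type 1 responses, at 26.1 against 3.03 CPM. Of 9 tested genes of the naive and recirculating list, 6 were higher and none lower (median 1.37), among them *TCF7* (146 against 10.8 CPM) and *LEF1* (22.5 against 1.06 CPM). Of 9 tested activation and checkpoint genes, 6 were higher (median 1.80), with the inhibitory receptor *LAG3* at 71.9 against 4.89 CPM. Cytotoxic genes were mixed: of 13 tested, 6 were higher and 2 lower (median 0.75). *CTSW*, a protease of cytotoxic lymphocytes, was at 1078 against 161 CPM, *PRF1* (perforin) at 44.0 against 13.8, and the chemokines *CCL3* and *CCL4* were the 2 lower genes. Of 10 tested NK receptor genes, *KLRK1*, *KLRC1*, *NCR3*, and *IL2RB* were higher and the adaptors and Fc receptor *FCER1G*, *TYROBP*, and *FCGR3A* lower (median 0.52). Of 9 tested interferon-stimulated genes, 2 were higher and 2 lower (median 0.15). None of the 16 tested cell division genes was called (median -0.43), while all 5 tested class II MHC genes (median -1.57) and all 10 macrophage markers (median -1.53) were lower.

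The 10 lowest ratios among named genes belonged to products of granulocytes and macrophages. *AZU1*, a neutrophil granule protein, was at 0.391 against 39.2 CPM, the latter from 0.422% of the other *PTPRC* barcodes. The chemokines *CCL8* (7.47 against 49.3 CPM), *CCL2* (14.0 against 63.6), *CXCL8* (56.3 against 202), and *GRO1* (93.6 against 323) were lower. So were *FCN1*, a lectin of monocytes (548 against 1842 CPM), the complement factors *CFD* (799.7 against 2702) and *CFP* (182 against 608), *FGL2* (100 against 338), and *ALOX5AP*, which serves leukotriene synthesis (56.9 against 197). Much of the level that remained in the members lay in the barcodes over the marker limit: without them *FCN1* was at 48.0 CPM, *CFD* at 100.1, and *CXCL8* at 8.77. Of the 10 tested hepatocyte markers 8 were called higher in the members, but these genes count toward the marker limit, which was applied to the members alone, so their values under it (log2 ratios of -0.70 for *AHSG*, -1.47 for *APOA1*, 0.00 for *ALB*, and 0.10 for *TF*) are lowered by the limit itself.

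**Figure D2:**
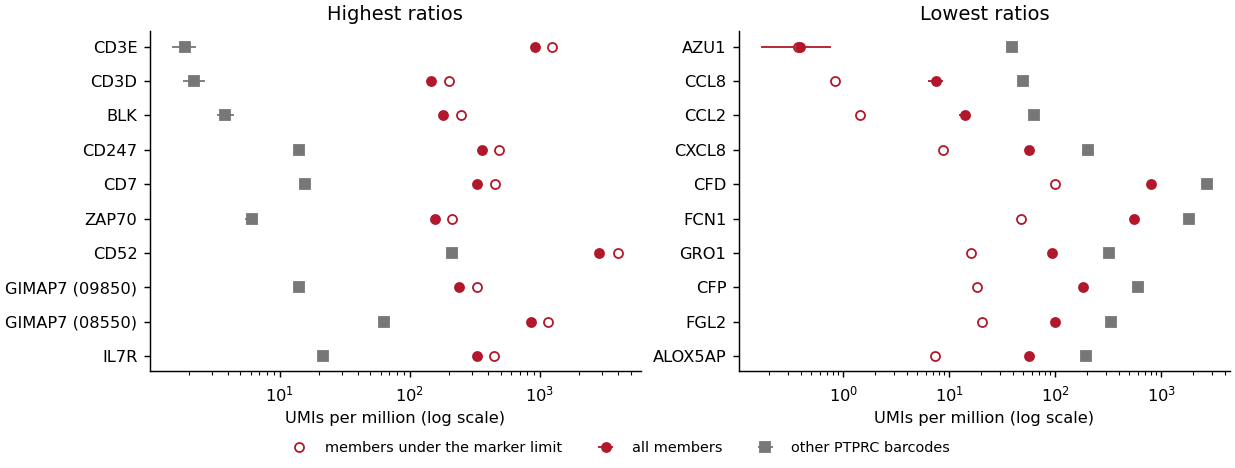
CPM on a log axis (x) of the 10 named genes with the highest and the 10 with the lowest log2 ratio of all 5055 members over the other PTPRC barcodes of the NB liver. Filled circles are all members, open circles the 4327 members under the marker limit, and squares the other PTPRC barcodes, with bars for 95% Poisson intervals; last digits of the identifier tell the GIMAP7 entries apart. The open circles lie to the left of the filled ones for the low genes other than AZU1, as for FCN1 (48.0 against 548 CPM).

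The coreceptors and the WC1 family divided the members unevenly. A UMI of *CD163L1* or a *WC1* gene, which mark a gamma delta subset in cattle, was found in 1407 of 5055 members (27.8%, interval 26.6 to 29.1). *CD8A* or *CD8B* without *CD4* was found in 1175 (23.2%, interval 22.1 to 24.4), and *CD4* without *CD8A* or *CD8B* in 54 (1.07%, interval 0.803 to 1.39). No coreceptor UMI was found in 75.2%, and at a median of 2758 UMIs per barcode this does not show that the coreceptors were absent. In 2300 macrophage barcodes outside the rule (median 8588 UMIs), the same shares were 0.609% for *CD163L1* or *WC1*, 5.26% for CD8, and 0.391% for *CD4*. When every barcode was thinned to 1000 UMIs (23 shallower members left out), the members had 12.5%, 10.4%, and 0.457%, and the macrophage barcodes 0.0875%, 0.962%, and 0.0875%. The *CD4* level was 5.91 CPM in the members and 1.04 CPM in other *PTPRC* barcodes.

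The share with *CD163L1* or a *WC1* gene was higher in the liver than in each NB intestinal T group. It was 2.80% of 107 duodenal, 2.49% of 281 jejunal, 6% of 150 ileal, 5.02% of 797 cecal, 3.35% of 837 colonic, and 2.33% of 1330 rectal barcodes, whose median depths of 3887 to 7185 UMIs exceeded that of the liver. At 1000 UMIs the intestinal shares ran from 0.357% to 2.74%, against 12.5% in the liver. *BLK* was seen in 40.4% of liver members and in 6.62% to 26.0% of the intestinal groups, and at 1000 UMIs in 20.2% against 2.48% to 8.90% (macrophage barcodes of the liver, 1.70% and 0.219%). The liver interval lay above the intestinal intervals in both measures and at both depths. Among the other libraries with at least 50 CD3E barcodes, *CD163L1* or a *WC1* gene was found in 14.5% of 1839 in the NB salivary gland, 0.538% of 372 in the NB abomasum, and 1.69% to 3.73% of those of the 4 AD intestinal tissues.

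With all UMIs, the CD8 share of the liver, 23.2%, lay within the intestinal range of 17.8% to 36.2%. The liver barcodes were shallower than those of the intestine, so these shares are not at equal depth. The *CD4* share was 1.07% in the liver, against 2.80% in the duodenum, 5.69% in the jejunum, 10.0% in the ileum, 17.9% in the cecum, 11.1% in the colon, and 31.2% in the rectum. The liver interval lay below those of 5 intestinal groups and inside that of the duodenum (0.582 to 7.98). At 1000 UMIs the duodenum (0.943%) and the jejunum (0.357%) could not be told from the liver (0.457%) beyond counting error, while the other 4 groups had 3.42% to 9.10%. *S1PR1*, the sphingosine 1-phosphate receptor that lets lymphocytes leave tissues, was found in 23.7% of liver members and in 4.98% to 13.7% of the intestinal groups, and at 1000 UMIs in 9.30% against 1.68% to 3.46%. In the macrophage barcodes of the liver it was found in 4.00%, and in 0.525% at 1000 UMIs. *MKI67*, a protein of dividing cells, was seen in 3.64% of liver members and in 5.34% to 30.5% of the intestinal groups, but at 1000 UMIs the liver (1.33%) and the jejunum (1.07%) were alike in value and the others had 2.83% to 12.4%.

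**Figure D3:**
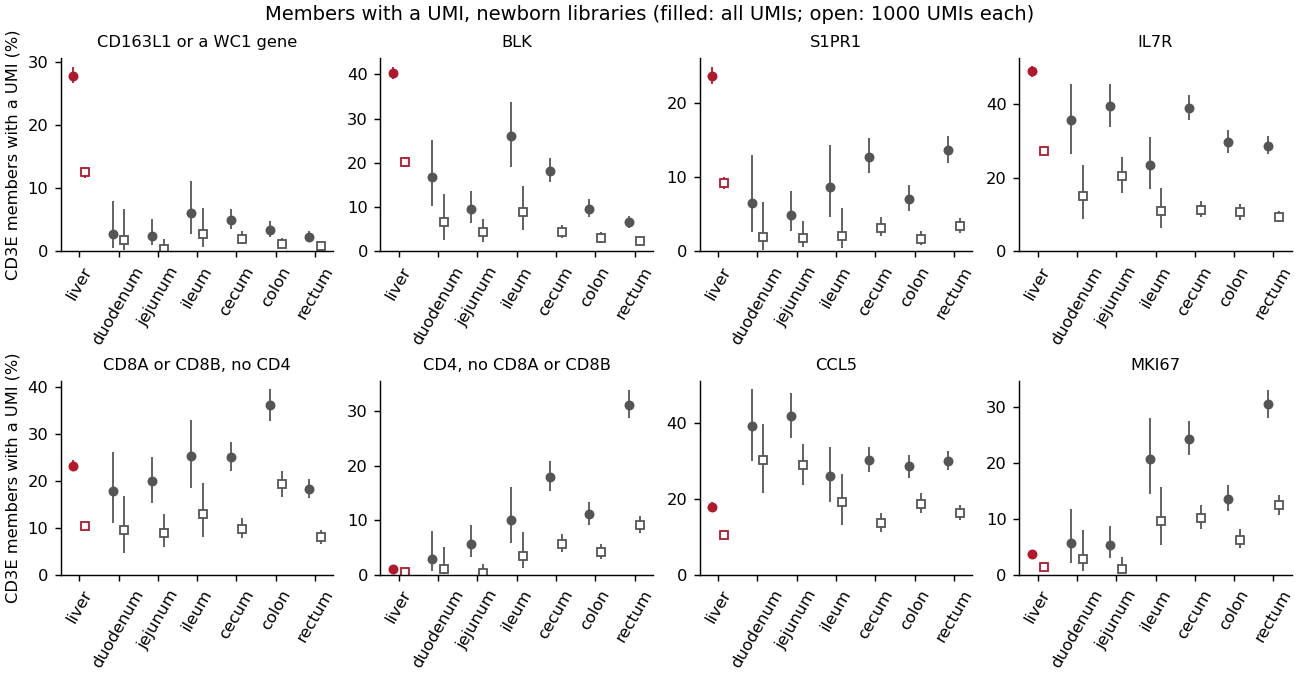
Share of CD3E members with a UMI of each gene or gene group (y axis, percent) in the NB liver (red) and the 6 NB intestinal libraries (gray), with 95% Clopper-Pearson intervals. Filled circles use all UMIs and open squares use barcodes thinned to 1000 UMIs each; the liver lies above the 6 groups for CD163L1 or WC1 genes (27.8%), BLK (40.4%), and S1PR1 (23.7%) at both depths.

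Few genes separated the liver T barcodes from all 6 intestinal T groups. Of 8925 genes tested, 127 were at least 2-fold above the highest intestinal group (1.42%) and 85 at least 2-fold below the lowest (0.952%). With each barcode weighted equally, the numbers were 82 and 93. With 1 liver and 6 intestinal libraries the smallest p a permutation of libraries could give is 0.143, so no test was made. Under the marker limit in all groups, 77 genes were higher and 71 lower, of which 48 and 52 were among those called with all members. The genes higher in the liver included 4 of 4 tested neutrophil markers and 8 of 11 hepatocyte markers. The part of free RNA and mixed barcodes in these calls was not tested. Outside the gene lists, a called gene was named only if it passed a further limit. Its T level in the higher tissue had to be 2-fold above that of the tissue's barcodes with neither *PTPRC* nor *CD3E*. This left 18 genes in each direction, and for those named from them the call was the same under the marker limit.

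The genes higher in the liver included 3 entries of the WC1 family. One *WC1* entry, ENSBTAG00000050603, was at 20.9 CPM (interval 19.0 to 23.0) in the liver members, 1.72 in duodenum, 0.771 in cecum, 1.16 in colon, 0.389 in rectum, and without a UMI in jejunum and ileum. The other, ENSBTAG00000049861, was at 31.9 CPM against 8.33 in cecum, the highest intestinal value. *WC-7* was at 15.8 CPM against 0.583 to 2.31. The copies share sequence, and reads may be split among them. *WC1-12* (20.0 CPM) and *CD163L1* (38.2 CPM) were also above every intestinal group, but less than 2-fold above the ileum (8.40 and 18.2 CPM) on the log2(CPM + 5) scale, at log2 ratios of 0.90 each. *BLK* was at 181 CPM in the liver, 93.8 in ileum, 68.8 in duodenum, 53.7 in cecum, 31.4 in colon, 30.7 in jejunum, and 19.9 in rectum. Its distance from the ileum was 0.91 on the log2 scale, and 1.34 under the marker limit.

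*S1PR1* was also higher, at 81.2 CPM against 31.0 (duodenum), 30.4 (cecum), 29.7 (rectum), 22.4 (ileum), 17.3 (colon), and 12.3 (jejunum). *RHEX*, a regulator of erythroid expansion in other settings, was at 255 CPM in 47.2% of members, against 5.16 to 63.2 in the intestinal groups. *SYTL3* (56.0 against 5.16 to 13.6 CPM), which takes part in vesicle trafficking, *NPDC1* (125 against 18.0 to 45.0), *CA5B*, a mitochondrial carbonic anhydrase (26.0 against 1.55 to 4.20), and *KCNIP3* (12.2 against 0 to 2.47) completed the genes named here. In each of them the liver value lay outside the range of the 6 groups by more than the counting intervals.

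Of the 10 named genes lower in the liver, 5 encode chaperones or their partners. *HSP90AA1* was at 1306 CPM in the liver members, and in the intestine at 10558 (cecum), 8295 (jejunum), 6201 (rectum), 5097 (duodenum), 4828 (ileum), and 4576 (colon). *HSPH1* was at 98.5 CPM against 343 to 1399, *DNAJB1* at 428 against 1192 to 2478, *DNAJA1* at 212 against 542 to 872, and *DNAJA4* at 27.7 against 79.8 to 418. *ZFAND2A*, a stress-induced protein of the proteasome, was at 91.6 CPM against 336 to 1079. *INSIG1*, which restrains sterol synthesis, was at 40.5 against 193 to 452. *NFKBID*, a nuclear inhibitor of NF-kappa-B, was at 7.86 against 46.5 to 120.1. *CSRNP1* (32.1 against 91.2 to 189 CPM) and *ODC1*, the first enzyme of polyamine synthesis (120.2 against 302 to 501), were the remaining 2. The other *PTPRC* barcodes of the liver were close to the members for *HSP90AA1* (1492 CPM), *HSPH1* (99.9 CPM), *DNAJA1* (208 CPM), and *NFKBID* (7.75 CPM). They were below the members for *DNAJB1* (257 CPM), *DNAJA4* (14.7 CPM), *CSRNP1* (22.5 CPM), and *ODC1* (71.1 CPM), and above them for *INSIG1* (80.3 CPM) and *ZFAND2A* (142 CPM). In barcodes with neither *PTPRC* nor *CD3E*, the intestinal median was also above the liver for all 10 genes. *HSP90AA1* was at 2791 against 1299.6 CPM, *HSPH1* at 269 against 79.1, and *INSIG1* at 77.5 against 64.7. The lower liver level was thus not confined to T barcodes. Of 15 tested genes of the immediate early and heat shock list, 5 were called lower, against 0.952% of all genes tested. The median log2 ratio of the list to the middle of the 6 groups was -1.27, against -0.04 over all genes tested. Tissue, calf, and dissociation cannot be told apart here either.

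**Figure D4:**
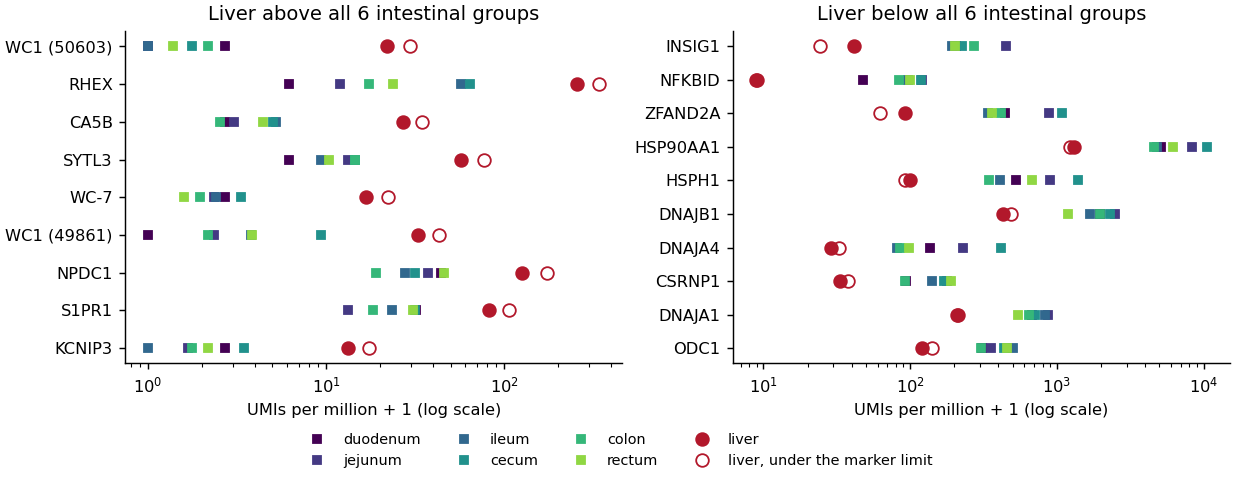
CPM + 1 on a log axis (x) of the named genes furthest above (9 shown) and furthest below (10 shown) all 6 NB intestinal T groups. Red filled circles are the liver members, open circles the liver members under the marker limit, and colored squares the intestinal groups; the last digits of the identifier tell the WC1 entries apart. HSP90AA1 reads 1306 CPM in the liver and 4576 to 10558 CPM in the intestines.

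Among the pathway lists, the gamma delta list lay highest relative to the intestine. Its 4 tested genes, *BLK*, *CD163L1*, and 2 *WC1* entries, were each given above, so the list repeats those values. Of these 4 genes, 2 were called higher (median 2.30). Over all 8925 genes tested, 1.42% were called higher and 0.952% lower (median -0.04). Of 10 tested naive and recirculating genes, 2 were higher, *S1PR1* among them (median 0.62). *CCR7*, a lymph node homing receptor of naive T cells, was not called, and was at 8.54 CPM in the liver, 1.72 in duodenum, and 77.2 in colon. Of 13 tested activation and checkpoint genes, none was higher and 2 were lower (median -0.96). The inhibitory receptor *PDCD1* was at 6.44 CPM against 21.8 to 74.7, and the costimulator *TNFRSF4* at 13.4 against 35.0 to 388 (17.9 under the marker limit, no longer 2-fold). Of 16 tested homing genes, *CCR9*, the gut homing receptor, was lower (1.76 against 10.2 to 55.1 CPM), and *CX3CR1* was higher (23.0 against 0 to 3.41), though it fell to 4.39 CPM under the marker limit. *FCER1G*, an adaptor of innate receptors, was higher (774 against 90.2 to 272 CPM), and under the limit it was at 332 CPM and not called.

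No gene of the cytotoxic list (17 tested, median -0.33) or the cytokine list (15 tested, median -0.28) was called in either direction against all 6 groups. Over all genes tested 1.42% were called higher and 0.952% lower, so lists of this size would hold few calls at that share. Some of these genes differed widely among the intestinal groups. *IL22*, a cytokine that acts on epithelium, had 0 UMIs in 5055 members, which allows up to 0.0593% of barcodes with a UMI or 0.146 CPM and does not bound the share of cells that express it. It was at 275 CPM in the jejunum, 129 in the duodenum, 109.8 in the rectum, 85.4 in the cecum, 14.6 in the colon, and 1.40 in the ileum. *IL17A* had 1 UMI in the liver members, against 0 in ileum and 189.8 CPM in rectum. *GZMA* was at 3.37 CPM (4.84 under the marker limit) against 3.69 to 89.6. The chemokine *CCL5*, which cytotoxic cells store, was at 199.6 CPM (283 under the marker limit) against 239 to 770.2. Cell division genes were lower in median (-1.16, 17 tested, none called), with *MKI67* at 35.7 CPM against 41.3 to 277. The recombination genes *RAG1*, *RAG2*, and *DNTT* had 0 UMIs in the liver members, while *DNTT* was at 169 CPM in colon.

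Pairs of genes showed how the liver members divided. The pairs were chosen after values were seen, and shares were taken over the 4305 members under the marker limit with at least 1000 UMIs, thinned to that number. *BLK* was seen in 37.2% of the 634 members with *CD163L1* or a *WC1* gene (interval 33.4 to 41.1) and in 20.0% of the 3671 others. *IL7R* was seen in 40.7% and 27.7%. *CTSW* went the other way, with 7.41% (interval 5.50 to 9.74) against 43.0%, as did *CCL5* with 1.26% against 12.9%. CD8 genes were seen in 4.73% against 13.1%. Among the 510 members with *CD8A* or *CD8B*, *CTSW* was seen in 72.9% (interval 68.9 to 76.8), against 33.0% of the others, *NKG7*, a granule membrane protein, in 39.4% against 14.8%, and *IL7R* in 12.4% against 32.0%. Barcodes of 1 library are not replicates, so no test was made on these shares.

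Clustering of the 4327 members under the marker limit gave 10 clusters at a Leiden resolution of 1 and 5 at 0.5. The genes that define a cluster were used to form it, so they describe it and carry no test. Clusters 1, 3, and 4 held 2333 members (53.9%) and had *BLK* and *RHEX* among the 10 leading genes with a symbol of each, with *CXCL12* in clusters 1 and 3, *CD163L1* in cluster 1, *PHGDH* and *CRIP1* in cluster 3, and *CDK14* in cluster 4. In these 3 clusters together, *CD163L1* or a *WC1* gene was seen in 48.1%, *S1PR1* in 34.3%, *IL7R* in 66.9%, *GATA3* in 47.5%, CD8 genes in 7.20%, *CD4* in 0.214%, *CD2* in 0.471%, and *MKI67* in 0.686%. The kinase *LCK* was at 3.78, 5.3, and 9.21 CPM in clusters 1, 3, and 4, and at 413 CPM in cluster 2. *ZAP70* went the other way, at 282, 281, and 345 CPM against 145 CPM in cluster 2. *CD79A*, a chain of the B cell receptor complex, was seen in 43.2% of the members of these 3 clusters, while *MS4A1* was at or below 0.378 CPM in each of the 3. *MS4A1* counts toward the marker limit that these members passed, and *CD79A* does not. Over all members *CD79A* was in 31.4%, *CD79B* in 0.910%, and the intestinal groups ranged from 5.61% to 43.3% for *CD79A* (macrophage barcodes of the liver, 5.35%).

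Clusters 2, 6, and 10 held 1189 members (27.5%) and were led among genes with a symbol by *IL2RB*, *HOPX*, and *CTSW* (cluster 2), *CCL5*, *GZMM*, and *NKG7* (cluster 6), and *CCL1* (cluster 10). In cluster 2, with 774 members, 6 of the 10 leading genes had no symbol. In these 3 together, *CTSW* was at 4466 CPM against 67.5 in clusters 1, 3, and 4, *NKG7* at 915 against 20.8, *CCL5* at 778 against 7.54, and *IL2RB*, a chain of the interleukin 2 and 15 receptors, at 787 against 5.19. CD8 genes were seen in 54.4% of them, *CD2* in 39.0%, *FCER1G* in 83.2%, *S1PR1* in 1.26%, and *CD163L1* or a *WC1* gene in 2.10%. Cluster 6 stood out for *CCL5* (1601 CPM) and *GZMM* (110 CPM). Cluster 10 (89 members) was led by *CCL1* (5558 CPM), *XCL1* (978 CPM), and *TNFRSF9* (785 CPM), genes that activated T cells are known to induce.

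Smaller clusters differed from both sets. Cluster 5 (447 members, 10.3%) was led by *CCL4* (157 CPM, from 9.40% of its barcodes) and *ZBTB16* (88.4 CPM, from 23.3%), the transcription factor of innate-like T cells, with *IL7R* at 1247 CPM and *TNFRSF4* at 97.6 CPM. Cluster 7 (126 members) was led by *MDK* and held *TOX* (352 CPM), *CD8B* (482 CPM), *TCF7* (812 CPM), and *MYB* (194 CPM), with *CD8A* at 56.6 CPM. Cluster 8 (121 members) was led by the division genes *CENPF*, *PCLAF*, and *TOP2A*, had *MKI67* in 40.5% of its barcodes, and had a median of 7767 UMIs. Cluster 9 (111 members) held genes of both large sets, with *CTSW* in 100.0% and *BLK* in 68.5%, and 97.3% of it was among the highest doublet scores, against 44.6% of cluster 8 and under 10% of each of the others. The part of mixed barcodes in clusters 8 and 9 was not tested further.

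**Figure D5:**
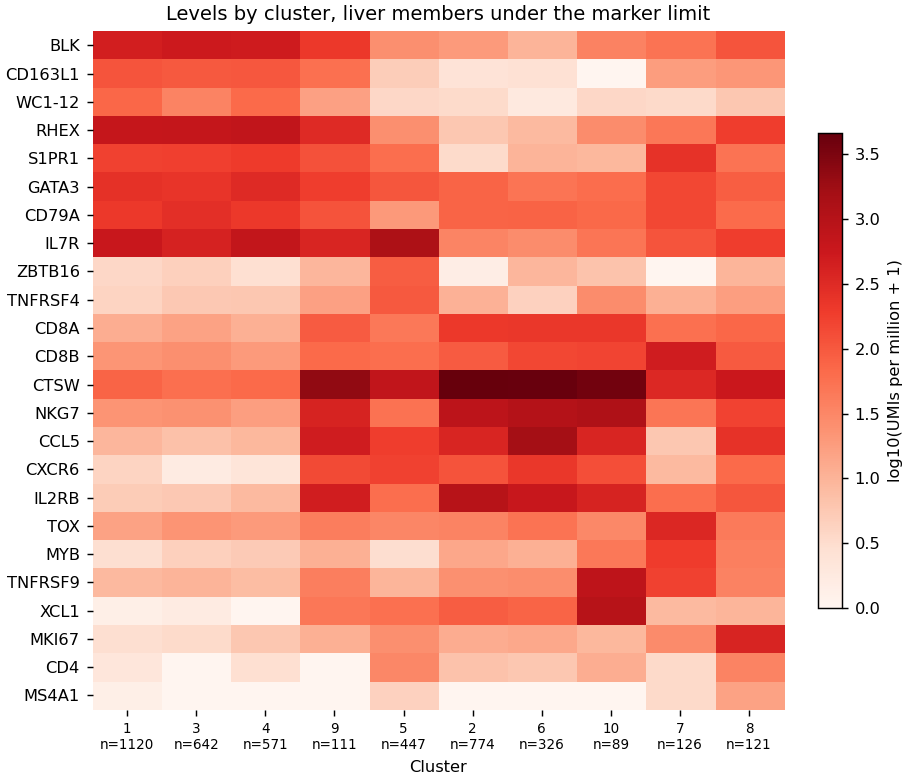
Level of 24 genes (rows, log10 of CPM + 1) in the 10 clusters of the 4327 liver members under the marker limit (columns, with the number of members), ordered by similar levels. Clusters 1, 3, and 4 are high in BLK and RHEX, clusters 2, 6, and 10 in CTSW and NKG7, and cluster 9 in both.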

How the data were processed

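Counts of 15 scRNA-seq libraries (10x Genomics 3' chemistry) were used. The authors aligned reads to ARS-UCD1.2 and counted UMIs with Cell Ranger (version 3.1.0), and the deposited values are raw UMI counts per gene and barcode, with 27270 genes listed in every library. The annotation release is not given in the sources used here. The sample labels gave the tissue and stage. The members and gene lists were chosen with earlier results of these data known.

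UMIs were summed over the barcodes of a group and divided by the group's total (CPM). Ratios used a pseudocount of 5 CPM. Genes reaching 10 CPM in a compared group were tested, and a call needed a 2-fold difference and 95% Poisson intervals that did not overlap. Against the intestine, the value had to lie beyond all 6 groups. Shares have exact Clopper-Pearson intervals. Both cover counting error only. The UMIs summed over a group set the Poisson intervals, and the number of barcodes sets those of the shares. Low CPM values in the small intestinal groups rest on few UMIs. Whole libraries held 17707625 to 129458578 UMIs. The text names genes of the lists, the 10 symbols with the highest and lowest ratio against other *PTPRC* barcodes, and the 10 furthest above and below all 6 intestinal groups that were also 2-fold above barcodes with neither *PTPRC* nor *CD3E*. Genes used for pairs and clusters, *WC1-12*, and *CXCL12* were chosen after their values were seen. *WC-7* was not counted among the *WC1* genes. Of 127 and 85 genes called against the intestine, 17 and 3 had no symbol and were not named. Values of 3 genes are not reported here, 1 of them among the 10 furthest above the intestinal groups.

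Doublets were scored with the Scrublet method on simulated doublets and kept, and leaving out the highest scores (0.8% per 1000 barcodes) was an alternative. No mitochondrial limit was set. Clusters used 1500 variable genes, 20 components, and 20 neighbors (leidenalg 0.10.2, igraph 0.11.9). Thinning drew 1000 UMIs per barcode without replacement. Python 3.11.15, SciPy 1.17.1, scikit-learn 1.9.0, and R with edgeR 4.0.16 (TMM factors alone) were used, and the calling scripts were tested on simulated data. No sequence table was used, so no sequence is shown.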

Additional observations from a re-analysis of the deposited data

Results flagged for a closer look

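*CDH5*, an adhesion gene of endothelial cells, was flagged because its T level relative to other *PTPRC* barcodes went opposite ways. The log2 ratio was -1.05 in the liver (14.1 against 34.6 CPM) and 0.24 to 1.83 in the 6 NB intestinal libraries. Under the marker limit it was -2.59 in the liver, but *CDH5* counts toward that limit, which was applied to the members alone and itself lowers the value. The difference between tissues was not tested.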

How the results depend on the processing

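The number of members was 5055 and ran from 3958 (another CD3 chain required) to 5112 (no upper gene limit). The 3 shares moved outside their counting intervals in these cases. With at least 2 *CD3E* UMIs, CD8 without *CD4* was 24.4% and *CD163L1* or *WC1* genes 29.5%. With another CD3 chain they were 21.8% and 32.6%. Without the highest doublet scores the *CD163L1* or *WC1* share was 26.6%, and with *WC-7* counted (chosen after seeing the data) 30.4%. Thinning to 1000 UMIs gave 10.4% (CD8), 0.457% (*CD4*), and 12.5% (*CD163L1* or *WC1*).

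Counts of genes moved over 1.5 times as follows. The 616 genes lower than in other *PTPRC* barcodes became 1024 without the highest doublet scores, 1327 under the marker limit (chosen after seeing the data), 1074 with the mean over barcodes, and 397 with a filter at 50 CPM, which also took the 378 higher genes to 158. The 127 genes above all intestinal groups became 77 under the marker limit (48 of them among the 127), 82 with the mean over barcodes (72 of them), and 64 with the 50 CPM filter. The 85 below became 51 with 2 *CD3E* UMIs, 49 with another CD3 chain, and 189 with a pseudocount of 1 CPM. Leaving out one intestinal library gave 132 to 197 genes above (197 without the jejunum) and 89 to 143 below (143 without the ileum). Under the marker limit the log2 ratio to other *PTPRC* barcodes turned for *AHSG* (-0.70) and *APOA1* (-1.47), markers that the limit itself counts and that it lowers in the members alone. The other causes were not tested, apart from the 50 CPM filter, which tests fewer genes. TMM scaling gave 156 above and 73 below, and 384 higher and 598 lower than other *PTPRC* barcodes. No paired analysis was possible because each tissue has 1 library. Depth limits absence: at a median of 2758 UMIs, a barcode without a UMI of *CD4* or a *WC1* gene may still express it.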
